A study of Mus musculus with 31 samples.

Results

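Scrapings of mouse colon that carried transcripts of the small intestine were compared with the other scrapings of their own groups. Gene expression had been measured on single-colour whole-transcript arrays, 1 array per sample, in the scraped lining of the colon of male C57Bl/6J mice aged 13 weeks. The mice ate a high-fat diet (HFD, 45% of energy from fat) or a low-fat diet (LFD, 10%), and were infused rectally on 6 consecutive days with 80 µL of saline, either plain (control) or holding 100 mM of the sodium salt of propionate, acetate or butyrate, each a short-chain fatty acid that gut bacteria make from fibre. The colon was taken 4 h after the last infusion, and its content was removed and the tissue rinsed before scraping. The groups compared were propionate LFD, control HFD and control LFD, with 4 arrays each. The labels give the same housing, sedation at each infusion and scraping for the 3 groups, which differed in the infused acid or in the diet.

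Within these 12 arrays, those whose mean log2 level of Apoa1, Apoa4 and Mttp exceeded 8 were taken, which gave 4 of the 12 arrays and 4 of the 31 in the series. They were control LFD 2 (mean 9.38), control LFD 3 (9.07), control HFD 2 (9.08) and propionate LFD 2 (9.64). Of the 8 others, called group mates here, the nearest to the threshold was propionate LFD 4 at 6.00. The 19 arrays of the 5 other groups lay between 4.94 and 6.54. These values chose the arrays and are no result. Because the arrays were picked by a readout of the same RNA, no p-value is given for the 4 arrays against the 8. Each difference below is a log2 difference, the 4 arrays minus the 8 group mates with 1 mean per group in the model, ± the standard error of the fit (n = 4 and 8). Where 4 values stand in a row, they are those of control LFD 2, control LFD 3, control HFD 2 and propionate LFD 2, in that order, and 3 values for the 8 group mates are the lowest, the median and the highest. All are log2 probe set levels, which say nothing of how one gene's level compares with another's. In a scraping, more cells of a type and more RNA per cell cannot be told apart.

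**Figure D1:**
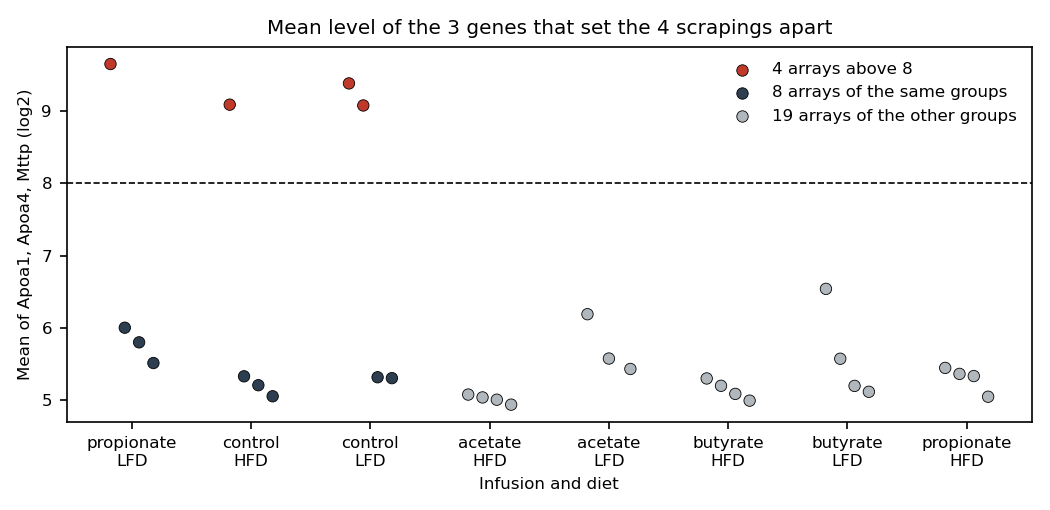
Mean log2 level of Apoa1, Apoa4 and Mttp (y axis) on each of the 31 arrays, by infusion and diet (x axis), with the threshold of 8 as a dashed line. The 4 arrays lie between 9.07 and 9.64, and every other array lies at 6.54 or below.

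The lining of the small intestine digests and absorbs food. Its enterocytes carry disaccharidases and peptidases on their brush border, take up sugars, amino acids, cholesterol and fatty acids, and export fat in chylomicrons, particles that Apoa1 and Apoa4 coat and that Mttp loads with lipid. At the base of its crypts sit Paneth cells, which secrete alpha-defensins and lysozyme against bacteria, and which are rare or absent in the healthy mouse colon. The colonic lining instead absorbs salt and water and is rich in mucus-making goblet cells. The factors GATA4 and CDX2 bind promoters of many enterocyte genes, sucrase-isomaltase and lactase among them.

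Promoter stretches of 4 genes are shown as examples of the letters searched, picked after their values and matches were seen. In each of these genes all 4 arrays lay above all 8 group mates. Each is the 250 bases before the start of the gene from RefSeq (mouse build GRCm38.p6), read 5′ to 3′ along the gene's strand. Capitals mark matches to the GATA motif (AGATAA, also with T as its first or G as its last letter) and the CDX motif (TTTATG, or the longer form TTTATTG), each searched on both strands. Sis (sucrase-isomaltase) lies at chr3:72967864-72968113 on the minus strand, Lct (lactase) at chr1:128328319-128328568 on the minus strand, Lgals2 (galectin 2) at chr15:78855530-78855779 on the minus strand and Enpp7 (alkaline sphingomyelinase) at chr11:118987931-118988180 on the plus strand.
Sis: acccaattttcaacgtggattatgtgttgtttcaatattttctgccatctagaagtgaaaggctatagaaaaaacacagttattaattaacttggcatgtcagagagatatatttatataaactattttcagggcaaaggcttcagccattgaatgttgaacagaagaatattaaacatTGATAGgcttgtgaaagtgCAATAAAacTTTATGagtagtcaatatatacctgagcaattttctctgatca
Lct: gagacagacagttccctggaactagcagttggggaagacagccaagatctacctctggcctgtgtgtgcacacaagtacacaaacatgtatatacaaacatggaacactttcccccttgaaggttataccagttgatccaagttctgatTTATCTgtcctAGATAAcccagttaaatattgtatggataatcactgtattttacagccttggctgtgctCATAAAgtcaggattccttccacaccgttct
Lgals2: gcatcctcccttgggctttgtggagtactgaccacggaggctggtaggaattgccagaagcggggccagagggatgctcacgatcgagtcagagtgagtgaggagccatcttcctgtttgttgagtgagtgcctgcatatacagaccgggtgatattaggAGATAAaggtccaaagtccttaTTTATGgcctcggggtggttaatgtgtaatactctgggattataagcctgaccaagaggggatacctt
Enpp7: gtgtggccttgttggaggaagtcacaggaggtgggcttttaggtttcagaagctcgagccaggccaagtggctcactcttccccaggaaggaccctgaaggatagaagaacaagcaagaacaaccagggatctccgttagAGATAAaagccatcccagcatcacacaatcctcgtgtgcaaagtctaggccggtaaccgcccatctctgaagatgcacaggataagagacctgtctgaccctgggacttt

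Sis, Lct and Lgals2 held both kinds of match within this window, and Enpp7 held a GATA match. Of the 32 genes described next, 25 had a promoter in the RefSeq table, and the others were Apoc3, Bst1, Defa24, Defa39, Mogat2, Nos2 and Susd2. A GATA match stood before 13 of the 25 (52%), against 29.7% of all 27025 genes in the table. CDX matches stood before 9 (36%, against 16.4% of all genes). No 2 matches of different motifs overlapped in these windows. All genes here means every gene in the table, tested on the arrays or not, so the percentages are of unlike sets. A match is a description of letters, and none was tested as a site.

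Transcripts of Paneth cells and of small-intestinal enterocytes were higher on the 4 arrays, among them the alpha-defensin Defa24 and the sphingomyelinase Enpp7. Of 12792 genes tested besides the 3 of the rule, 32 were at least 1 higher on the log2 scale (2-fold), which is 0.250% of the genes tested, and 0 were at least 1 lower. The arrays were chosen on the same measurements, so nothing is read from these counts. The median difference of the 32 was 1.53, against -0.02 over all genes. All 32 lay above 0 in each of the 3 groups, and 17 by at least 1 in each. For 28 of them all 4 arrays lay above all 8 group mates, and for 24 they lay above all 27 other arrays. The 32 were picked for their size on these same arrays, so such counts only describe them. For the count above 0 in each group, the 17 and the 24, the share over all genes was not taken. Against the 19 arrays of the other groups alone, 26 of the 32 stood wholly above, as did 35 of all genes (0.274%), while 3 of all genes (0.0235%) stood wholly below. Over all genes, 61 had all 4 arrays above the 8 (0.477%) and 41 had all 4 below (0.321%). Without control LFD 2, 3 or 4 the first count was 92 to 125, and without control LFD 1 to 4, control HFD 2 or propionate LFD 2 the second was 76 to 151. Of the 32, 6 passed the filter on dim probe sets only through the 4 arrays (Bst1, Defa39, G6pc, Lct, Slc2a2 and Susd2), as did 44 of all 12792. For 7 of the 32 (the same 6 and Defa24), none of the 8 group mates reached the filter's intensity of 20, so the size of their difference and its rank depend on how background was corrected. That intensity is 4.32 on the log2 scale. The mates of other genes, such as Enpp7, Apoc3 and Abcc2, lay near it, and the same limit holds for those.

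**Figure D2:**
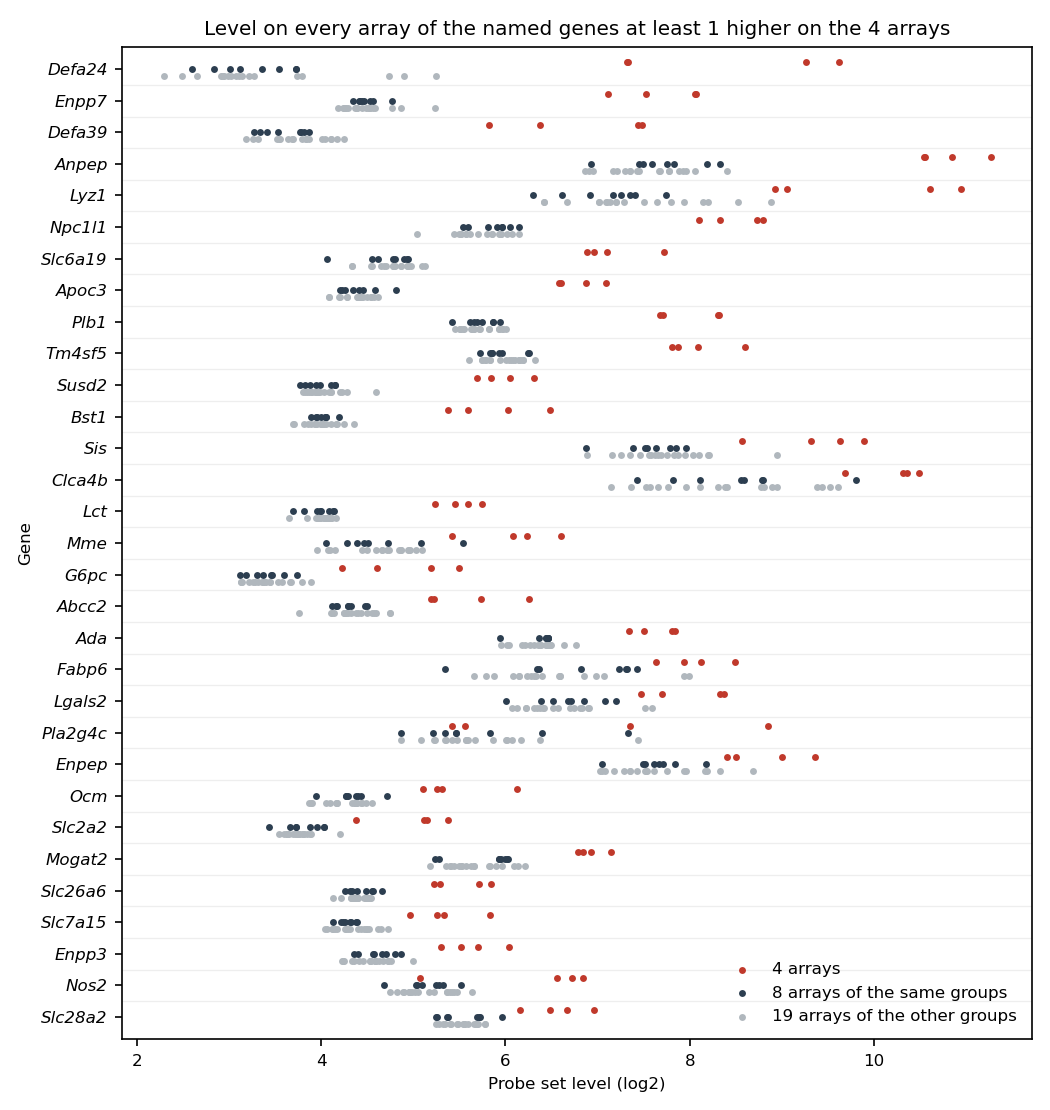
Log2 probe set level (x axis) on every array of the 31 genes with a descriptive name that were at least 1 higher on the 4 arrays (y axis, by size of the difference). In each row the 4 arrays are drawn above their 8 group mates and the 19 arrays of the other groups. The rows of Clca4b, Mme, Pla2g4c and Nos2 overlap between the 4 and the 8, and the 27 others do not.

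Antimicrobial products of Paneth cells were among the genes furthest apart. Defa24, an alpha-defensin on chromosome 8, had log2 levels of 7.33, 9.62, 7.32 and 9.26 on the 4 arrays, against 2.60, 3.24 and 3.73 on the 8 group mates (difference 5.14 ± 0.40). The levels did not overlap, and the highest of the 19 other arrays was 5.25. Defa39, another alpha-defensin of chromosome 8, had 6.37, 7.48, 5.82 and 7.44 on the 4 arrays, against 3.27, 3.65 and 3.87 on the group mates (3.11 ± 0.24). Lyz1, the lysozyme of Paneth cells, had 9.05, 10.95, 8.92 and 10.61 on the 4 arrays, against 6.30, 7.22 and 7.74 on the mates (2.86 ± 0.38). In all 3 genes control LFD 3 and propionate LFD 2 stood above the other two high arrays.

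Alpha-defensin genes are near-identical copies, so a probe set can take signal from several of them, and the split between Defa24, Defa39 and their relatives is uncertain. A further 14 probe sets that passed the filter are annotated only to several alpha-defensin genes at once. Some of the 14 name the same genes, Defa24 among them, and some hold identical values (differences of 4.30 or 4.13). They are thus not separate readings of the family. How many of them passed the filter only through the 4 arrays was not counted. All 14 were at least 1 higher on the 4 arrays, with differences from 1.27 to 4.58 and a median of 3.74, and they were all of the 1159 filtered probe sets with several symbols to reach that size. Their mean log2 level was 7.50, 9.15, 7.58 and 8.88 on the 4 arrays, against 4.52, 4.85 and 4.999 (lowest, median and highest) on the group mates. On the 19 other arrays it ran from 4.35 to 5.84.

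Other Paneth cell genes differed less. Ang4, a bactericidal ribonuclease, differed by 0.70 ± 0.37, Itln1, a lectin that binds microbial sugars, by 0.34 ± 0.16, and Mmp7, the protease that activates mouse alpha-defensins, by 0.29 ± 0.14. The levels of each overlapped between the 4 arrays and the 8. Without propionate LFD 2 the differences of Ang4 and Itln1 were 0.26 and 0.10, and without control LFD 3 that of Mmp7 was 0.17. Of the Paneth cell list, 5 of 17 members could be tested and all 5 lay above 0. Most of the rest are alpha-defensins without a probe set of their own.

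Uptake and export of dietary lipid formed the second group. Npc1l1, the transporter that takes up cholesterol from the gut lumen, had log2 levels of 8.73, 8.33, 8.10 and 8.80 on the 4 arrays, against 5.54, 5.93 and 6.15 on the group mates (2.57 ± 0.10). Apoc3, an apolipoprotein of triglyceride-rich particles, had 6.87, 6.58, 6.61 and 7.09 on the 4 arrays, against 4.21, 4.38 and 4.82 on the mates (2.40 ± 0.10). The spread among the 4 arrays was small beside the gap in both genes. Mogat2, which makes diacylglycerol from absorbed monoacylglycerol, had 6.93, 6.78, 6.84 and 7.14 on the 4 arrays, against 5.23, 5.94 and 6.02 on the mates (1.11 ± 0.14). Fabp1, the fatty acid binding protein shared by liver and proximal gut, fell just short of the size chosen, with 4.71, 4.95, 5.62 and 5.10 on the 4 arrays against 3.96, 4.04 and 4.42 on the mates (0.98 ± 0.16). Creb3l3, a transcription factor that drives apolipoprotein genes, differed by 0.56 ± 0.13 without overlap. Of the 18 tested members of the lipid list 17 lay above 0, where 43.2% of all genes did, with a median of 0.36. All 4 arrays lay above the 8 in 6 of the 18.

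Enzymes that cleave dietary phospholipid and sphingomyelin were among the genes with the widest gaps. Enpp7, the alkaline sphingomyelinase of the brush border, had 8.06, 7.52, 7.11 and 8.06 on the 4 arrays, against 4.34, 4.45 and 4.76 on the group mates (3.17 ± 0.14, 8.98-fold). Those mates lay near the filter's intensity, so the fold depends on how background was corrected. Plb1, the brush-border phospholipase B, had 8.31, 7.71, 7.68 and 8.31 on the 4 arrays, against 5.42, 5.72 and 5.94 on the mates (2.26 ± 0.14). Neither overlapped. Pla2g4c, a cytosolic phospholipase A2, had 5.57, 7.36, 5.42 and 8.85 on the 4 arrays, against 4.86, 5.46 and 7.33 on the mates (1.16 ± 0.42). It was high on control LFD 3 and propionate LFD 2 only, its levels overlapped, and without propionate LFD 2 its difference was 0.60.

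Carbohydrate digestion and handling was higher as well. Sis, which splits sucrose and starch ends, had 9.63, 9.32, 8.57 and 9.89 on the 4 arrays, against 6.87, 7.58 and 7.95 on the group mates (1.73 ± 0.21). Lct, which splits milk sugar, had 5.45, 5.23, 5.59 and 5.75 on the 4 arrays, against 3.69, 3.99 and 4.14 on the mates (1.53 ± 0.11). Neither overlapped, although the highest Sis level of the 19 other arrays (8.95) exceeded that of control HFD 2. G6pc, the catalytic subunit of glucose-6-phosphatase, had 5.50, 4.61, 4.23 and 5.19 on the 4 arrays, against 3.12, 3.41 and 3.73 on the mates (1.42 ± 0.19). Slc2a2 (GLUT2), the sugar transporter that opens towards the blood, had 5.38, 5.15, 4.38 and 5.11 on the 4 arrays, against 3.43, 3.80 and 4.03 on the mates (1.11 ± 0.14). Mgam, the maltase that works beside sucrase-isomaltase, was close between the sets of arrays, with 10.81 to 11.05 on the 4 arrays and 10.41 to 10.69 on the mates (0.32 ± 0.06). Of the carbohydrate list, Lct, G6pc and Slc2a2 passed the filter only through the 4 arrays, and the 6 other tested members lay above 0 with a median of 0.23.

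Peptidases and amino acid transporters of the brush border made up the next group. Anpep, aminopeptidase N, had 10.85, 10.55, 10.54 and 11.27 on the 4 arrays, against 6.93, 7.67 and 8.32 on the group mates (3.07 ± 0.17). Slc6a19, the sodium-coupled transporter of neutral amino acids, had 6.96, 7.10, 6.89 and 7.72 on the 4 arrays, against 4.06, 4.79 and 4.95 on the mates (2.57 ± 0.15). Both sets of levels stood apart from all 27 other arrays. Enpep, aminopeptidase A, differed by 1.15 ± 0.16 without overlap with the mates. Mme, neprilysin, differed by 1.52 ± 0.26 and overlapped, since control HFD 2 had 5.42 where the highest mate had 5.54. Xpnpep2, an aminopeptidase that cleaves beside proline, differed by 0.75 ± 0.17 and Ace, the angiotensin-converting enzyme, by 0.55 ± 0.11. Of the 14 tested members of this list 11 lay above 0, with a median of 0.29, and 4 were at least 1 higher. Slc7a15, a member of an amino acid transporter family that stood outside the list, differed by 1.07 ± 0.13.

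Genes of the ileum, the last stretch of the small intestine, gave a mixed picture. Fabp6, the ileal bile acid binding protein, had 7.64, 8.12, 7.94 and 8.49 on the 4 arrays, against 5.34, 7.02 and 7.42 on the group mates (1.20 ± 0.24). The gap between the sets was narrow, and without control HFD 2 the difference was 0.90. Fgf15, the hormone that ileal bile acid uptake induces, had 4.21, 4.80, 5.19 and 4.71 on the 4 arrays, against 3.90, 4.13 and 4.46 on the mates (0.58 ± 0.16), and overlapped through control LFD 2. Slc10a2, the apical bile acid transporter that defines ileal uptake, had 9.74, 8.73, 8.49 and 9.11 on the 4 arrays, against 8.49, 9.12 and 9.89 on the mates (-0.24 ± 0.20). Its levels overlapped, and the difference was -0.08 without control LFD 3 and -0.39 without control LFD 2. Cubn, the receptor for the vitamin B12 carrier, differed by 0.52 ± 0.21 and Slc51a, the basolateral bile acid exporter, by -0.20 ± 0.18 (-0.06 without propionate LFD 2 and -0.40 without control HFD 2). Of the 8 tested members of the bile acid list 4 lay above 0, with a median of 0.06.

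Genes of vitamin and mineral uptake, which belong mostly to the duodenum, did not share the pattern. Of 12 tested members 6 lay above 0, with a median of 0.00, and in none did all 4 arrays lie above or below the 8. S100g, the calcium-binding protein calbindin-D9k, differed by -0.88 ± 0.37, with 8.26, 8.65, 8.20 and 6.87 on the 4 arrays against 7.94, 8.89 and 9.67 on the group mates. The low value was that of propionate LFD 2, without which the difference was -0.30. Trpv6, the apical calcium channel, differed by -0.53 ± 0.22, and Rbp2, the retinol-binding protein of enterocytes, by 0.50 ± 0.16. All 3 overlapped, and the difference of Trpv6 was -0.22 without control HFD 2 and that of Rbp2 0.33 without propionate LFD 2.

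Among the enzymes and pumps of drug metabolism, Abcc2, an apical efflux pump for conjugates, had 5.23, 5.73, 5.20 and 6.25 on the 4 arrays, against 4.11, 4.29 and 4.50 on the group mates (1.33 ± 0.14). Cyp3a25, a cytochrome P450, differed by 0.79 ± 0.13. Of the 10 tested members 3 lay above 0. Hormones of the small intestine showed little, with differences of -0.19 to 0.28 over 5 tested members and the largest in Gip, the incretin of duodenal K cells (0.28 ± 0.09). Of the transcription factors, Gata4, which in the gut marks the duodenum and jejunum, had 4.55, 4.44, 4.40 and 4.78 on the 4 arrays, against 3.64, 4.03 and 4.39 on the mates (0.49 ± 0.12). The lowest of the 4 lay just above the highest mate, and without propionate LFD 2 the difference was 0.32. The Gata4 levels of the 4 arrays lay near the filter's intensity (4.32 on the log2 scale), and the mates' median lay below it. Gata5 (0.55 ± 0.18) overlapped. Gata6, found in both segments, differed by 0.09 ± 0.10, and by -0.02 without control LFD 1.

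The remaining genes of the 32 fell in no list. Tm4sf5, a tetraspanin-like membrane protein, had 8.09, 7.88, 7.81 and 8.60 on the 4 arrays, against 5.73, 5.89 and 6.26 on the group mates (2.17 ± 0.14). Susd2, a membrane protein, differed by 2.03 ± 0.11, and Bst1 (CD157), an ectoenzyme that acts on NAD, by 1.90 ± 0.15. Clca4b, of a family of calcium-activated chloride channel regulators, had 10.31, 10.36, 9.69 and 10.49 on the 4 arrays, against 7.43, 8.57 and 9.81 on the mates (1.56 ± 0.27), and overlapped through control HFD 2. Purine handling was represented by Ada, adenosine deaminase (1.24 ± 0.11), and Slc28a2, a sodium-coupled nucleoside transporter (1.04 ± 0.16), neither of which overlapped. Lgals2, galectin 2, had 7.70, 8.33, 7.47 and 8.37 on the 4 arrays, against 6.00, 6.69 and 7.19 on the mates (1.19 ± 0.17). Ocm, the calcium-binding oncomodulin (1.15 ± 0.14), Slc26a6, an apical anion exchanger (1.09 ± 0.11), and Enpp3, an ectonucleotide pyrophosphatase (1.06 ± 0.13), did not overlap either. Nos2, the inducible nitric oxide synthase, had 6.56, 6.72, 5.07 and 6.84 on the 4 arrays, against 4.68, 5.17 and 5.51 on the mates (1.05 ± 0.22), with control HFD 2 among the mates. The last of the 32 is a gene model without a descriptive name.

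Transcripts of the colon itself were present on all 12 arrays, at like levels when averaged over a list. The mean of the 18 genes of a list named colonic absorptive surface ran from 9.98 to 10.4 on the 4 arrays, against 9.97 to 10.4 on the group mates. Of the 18 genes, 9 lay above 0, with a median difference of -0.01. Single members differed by -0.67 to 0.83, and in none did all 4 arrays lie above or below the 8. The highest member, Retnlb (0.83 ± 0.52), is a goblet cell product that acts on bacteria, so the list is not of absorptive genes alone. Retnlb had 8.57, 9.31, 8.07 and 11.12 on the 4 arrays, against 6.86, 8.43 and 9.65 on the mates. Without propionate LFD 2 its difference was -0.03. The hindgut transcription factors of the Hox clusters had a median difference of -0.16 (1 of 5 above 0), and the colonic hormones Insl5 and Pyy differed by -0.26 ± 0.16 (-0.16 without propionate LFD 2 and -0.41 without control LFD 3) and -0.20 ± 0.07. Muc2, the gel-forming mucin of goblet cells, had 13.14 to 13.25 on the 4 arrays, against 13.07 to 13.16 on the mates (0.07 ± 0.04). The 12 epithelial genes used by both segments, such as Cdx2 (0.19 ± 0.12, and 0.11 without propionate LFD 2) and Krt20 (0.14 ± 0.12, and 0.06 without control HFD 2), all lay above 0, with a median of 0.11 and none without overlap.

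**Figure D3:**
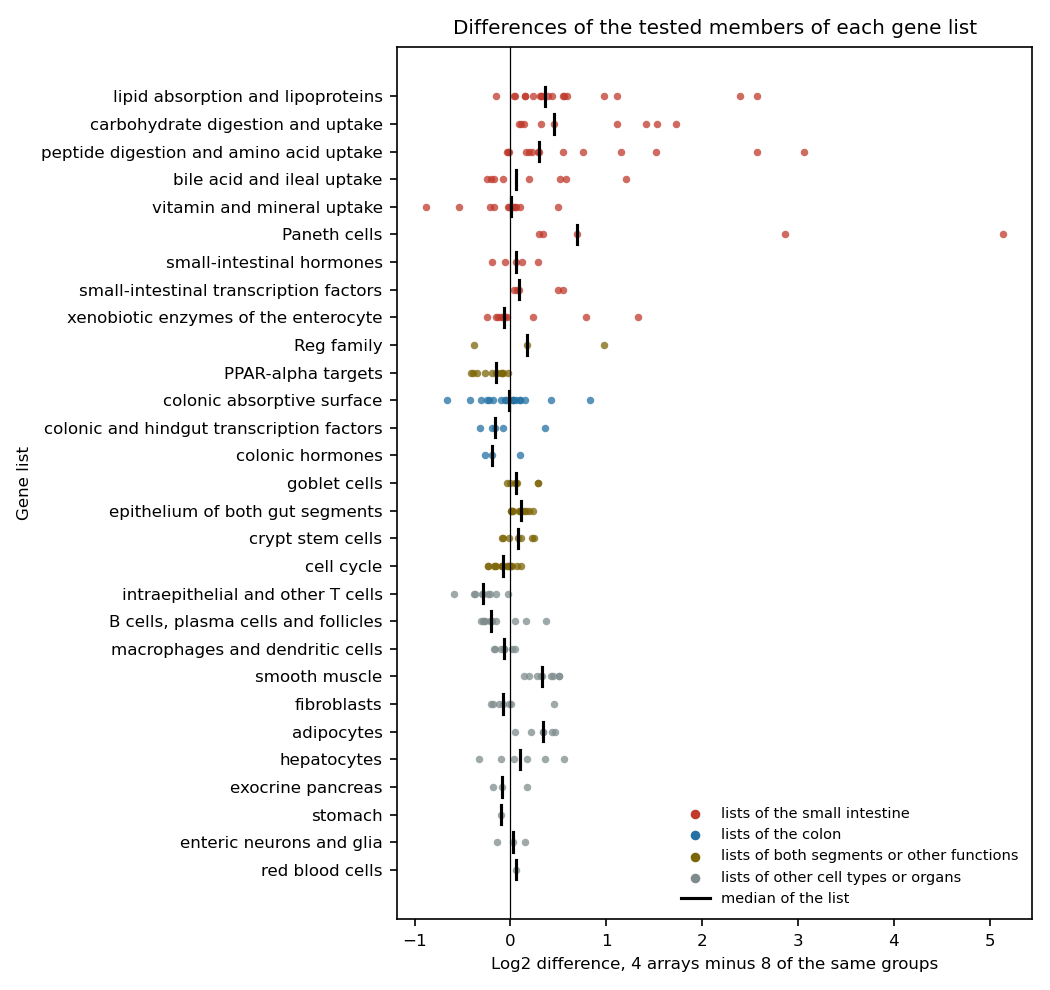
Log2 difference, 4 arrays minus 8 group mates (x axis), of each tested member of 29 gene lists (y axis), with the median of each list as a black bar. Paneth cell genes have the highest median (0.70), and the medians of lipid and peptide uptake are 0.36 and 0.29. That of the list named colonic absorptive surface, which also holds the goblet cell product Retnlb, is -0.01. Adipocyte and smooth muscle markers have medians of 0.34 and 0.33. The median of carbohydrate uptake (0.46) includes Lct, G6pc and Slc2a2, which passed the filter only through the 4 arrays.

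Markers of other cells and organs were set beside these. Markers of the exocrine pancreas and stomach, organs that also make digestive proteins, were mostly below the filter: 3 of 15 and 1 of 8 members could be tested, with medians of -0.09 and -0.10. The 6 testable hepatocyte markers had a median of 0.10, their mean level ran from 6.09 to 6.49 on the 4 arrays, against 5.73 to 6.77 on the mates, and fibrinogen and Apoh were below the filter. Of the smooth muscle markers, Synpo2 passed the filter only through the 4 arrays, and the 8 other tested ones lay above 0 with a median of 0.37. The list's mean level over all 9 was 5.29 to 6.56 on the 4 arrays, against 5.11 to 6.80 on the mates. Adipocyte markers had a median of 0.34 (6 of 6 above 0) with a mean level of 4.83 to 5.98 on the 4 arrays, against 4.62 to 6.39 on the mates. The part of fat or of smooth muscle in the results was not tested. Without control HFD 1 and 2, the arrays highest in smooth muscle, 32 genes were again at least 1 higher, 31 of them the same. The 32 had been picked with the remaining arrays too, so this count only describes them.

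No gene reached a difference of -1. Of the genes without overlap, Mcpt2 and Mcpt1, proteases of mucosal mast cells, were the furthest below 0 on the 4 arrays. Mcpt2 had 4.92, 4.88, 4.78 and 4.73 on the 4 arrays, against 5.21, 5.56 and 6.06 on the group mates (-0.70 ± 0.13), and Mcpt1 had 5.40, 5.18, 5.31 and 5.23 on the 4 arrays, against 5.59, 5.73 and 6.13 on the mates (-0.51 ± 0.10). Among the 19 other arrays both genes ranged lower still, to 3.46 and 4.06. Next came Tlr9, a sensor of bacterial DNA (-0.30 ± 0.10), Vamp7, a protein of vesicle fusion (-0.29 ± 0.08), Il21r, an interleukin receptor (-0.29 ± 0.11), Cst7, an inhibitor of proteases in immune cells (-0.29 ± 0.09), the zinc-finger gene Zfp354a (-0.28 ± 0.08) and Unc93b1, which carries Toll-like receptors to endosomes (-0.25 ± 0.08). Of all genes tested only 43.2% lay above 0, so the counts below 0 that follow start from a tilt to that side. All 9 tested T cell markers lay below 0, with a median of -0.28, and Cd7, an early T cell marker, differed by -0.59 ± 0.13. Their mean level ran from 5.02 to 5.43 on the 4 arrays, against 5.16 to 5.80 on the mates. B cell and follicle markers had a median of -0.21 (8 of 10 below 0) once Mzb1, which passed only through the 4 arrays, was left out. Macrophage and dendritic cell markers had a median of -0.07 (6 of 8 below 0). All 11 tested targets of the lipid sensor PPAR-alpha lay below 0 as well, with a median of -0.15.

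The 4 arrays did not carry the pattern in equal measure. Each was set against the mean of the 2 or 3 group mates of its own group. The median over the 32 genes was 1.65 for control LFD 2, 1.41 for control LFD 3, 1.28 for control HFD 2 and 1.94 for propionate LFD 2. Propionate LFD 2 had the largest gap in 22 of the 32 genes. The Paneth cell genes were strongest on control LFD 3, by 6.44 for Defa24 and 4.34 for Lyz1, and on propionate LFD 2, by 5.91 and 3.52. On control HFD 2 the same genes stood 4.16 and 1.50 above the mates. There the ileal and fatty acid binding genes had their widest gaps, 1.93 for Fabp6, 1.60 for Fabp1 and 1.02 for Fgf15. The Fabp6 level itself was higher on control LFD 3 and propionate LFD 2, so its wide gap rests on the low mates of control HFD. Nos2 (0.06) and Mme (0.65) were weak on control HFD 2. On control LFD 2, Fabp6 (0.32), Fabp1 (0.39) and Pla2g4c (-0.02) were close to the mates. With 1 or 2 such arrays per group, these differences between arrays have no replicate check.

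**Figure D4:**
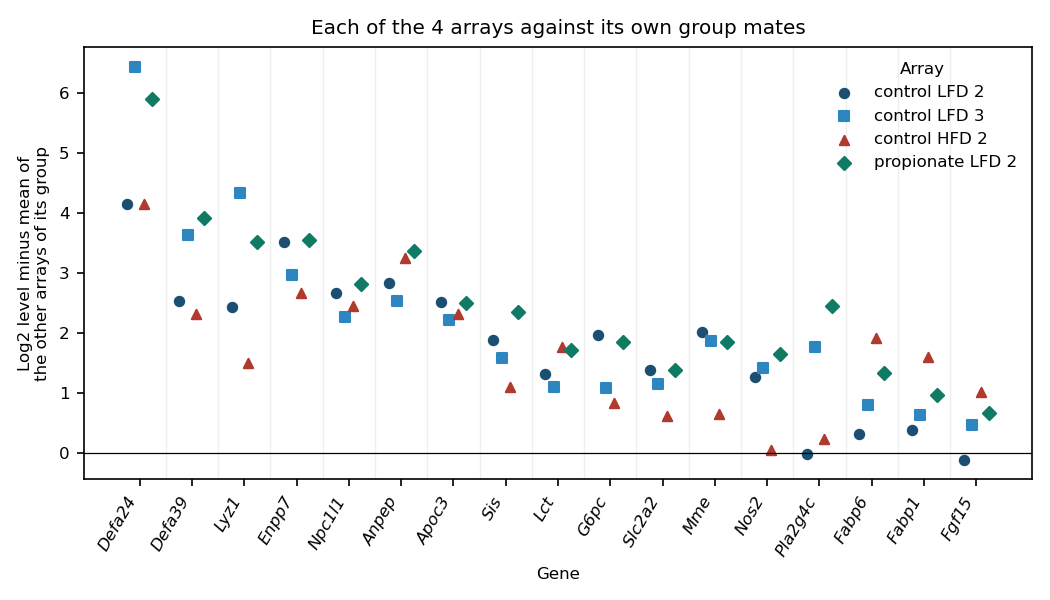
Log2 level of 17 genes (x axis) on each of the 4 arrays minus the mean of the group mates of that array (y axis). Control LFD 3 and propionate LFD 2 are high in Defa24 and Lyz1. Control HFD 2 has the widest gap to its mates in Fabp6, Fabp1 and Fgf15 and is near 0 in Nos2. For Fabp6 its level is not the highest of the 4 arrays.

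The genes whose profile was most like the mean of Apoa1, Apoa4 and Mttp over the 12 arrays, by Pearson's r of deviations from group means, were Npc1l1 (r = 0.991), Enpp7, Apoc3, Plb1, Anpep, Tm4sf5, Susd2, Lct, Slc6a19 and Bst1 (r = 0.971). They share the arrays with the rule, so these correlations are a description. Fabp6 (0.810), Nos2 (0.809) and Pla2g4c (0.606) followed the mean least closely of those named among the 32.

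The 19 arrays of the acetate, propionate HFD and butyrate groups took no part in the choice, and they allow a test. Each gene was regressed on the mean of Apoa1, Apoa4 and Mttp, which spanned 4.94 to 6.54 there, with 1 mean per group (limma, Benjamini-Hochberg over all genes). No gene passed an adjusted p of 0.05 (0% of 12792), while 834 (6.52%) had an unadjusted p under 0.05. Of the 26 genes that passed the filter without the 4 arrays, 16 had a slope above 0, where 49.6% of all genes did, with a median slope of 0.11. Positive slopes with an unadjusted p under 0.05 were found in 5 of the 26 (over all genes 3.46%) and negative ones in 0. They were Enpp7 (slope 0.62 ± 0.11, limma adjusted p = 0.107), Anpep (0.73 ± 0.22, 0.628), Npc1l1 (0.45 ± 0.17, 0.682), Defa24 (1.15 ± 0.47, 0.726) and Mogat2 (0.39 ± 0.18, 0.748). Without butyrate LFD 1, the array highest in the mean of the 3 genes, the slope of Defa24 was 0.56 and that of Npc1l1 0.83. Enpp7 had the smallest p of all genes tested, and it passed the threshold after a further quantile normalization and without acetate HFD 2. Its level was near the filter's intensity (4.32 on the log2 scale) on some of these arrays, such as propionate HFD 1 (4.26). Lyz1 (0.65 ± 0.42) and Defa39 (0.27 ± 0.22) had slopes above 0 that missed an unadjusted p of 0.05. Sis (-0.49 ± 0.31) and Fabp6 (-0.59 ± 0.37) had slopes below 0 that missed it too. All small-intestinal lists held 83 members that passed the filter without the 4 arrays. Of these 83, 35 had a slope above 0, a smaller share than the 49.6% of all genes. An unadjusted p under 0.05 was found for 10 slopes above 0 and for 8 below 0. Over all genes, 3.46% had such a p with a slope above 0, and 6.52% in either direction. By count of slopes, the 83 members thus did not lean above 0. After Enpp7, the smallest p-values belonged to genes that did not stand apart on the 4 arrays, such as the death receptor Tnfrsf21 (0.37 ± 0.07, adjusted p = 0.243), the creatine kinase Ckb (0.46 ± 0.10, 0.463) and, below 0, the growth factor receptor Igf1r (-0.54 ± 0.12, 0.463, and a slope of -0.28 without butyrate LFD 1).

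**Figure D5:**
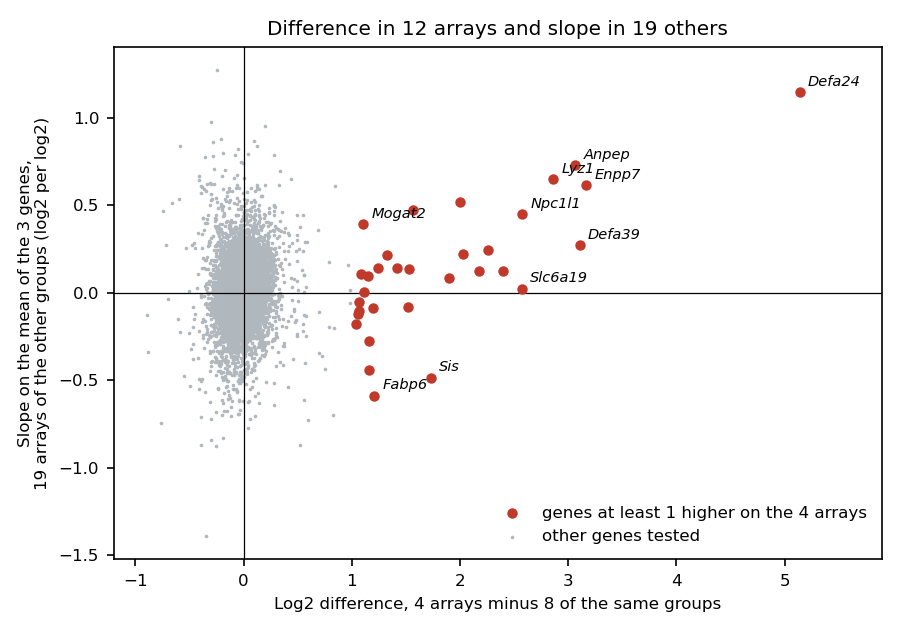
Log2 difference of each gene in the 12 arrays (x axis, 4 arrays minus 8 group mates) and its slope on the mean of Apoa1, Apoa4 and Mttp in the 19 other arrays (y axis). The 32 genes at least 1 higher are in red, with Enpp7, Anpep, Npc1l1 and Defa24 at 0.62, 0.73, 0.45 and 1.15.

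The 4 arrays are spread unevenly over the labelled groups, with 1 in propionate LFD, 1 in control HFD and 2 in control LFD, so they enter comparisons by label. Those comparisons were fitted over all 31 arrays and 8 groups. In neither of the comparisons below did any of the 32 genes, or any of the 12792 tested, pass an adjusted p of 0.05 (limma). For control HFD against control LFD, 5 of the 32 had an unadjusted p under 0.05, against 7.29% of all genes, and the median difference of the 32 was -0.62 with the 4 arrays and -0.13 without them. For propionate LFD against control LFD, 1 of the 32 had such a p, against 3.81% of all genes, and the median was -0.29 with and -0.02 without. Both comparisons use the control LFD arrays. The 32 genes were picked for being high on the 4 arrays, 2 of which are in control LFD. Medians below those of all genes that shrink without the 4 arrays thus follow from that choice and are no result. The 32 also include the 6 genes that passed the filter only through the 4 arrays. Defa24 gave -1.63 ± 1.20 for control HFD against control LFD with the 4 arrays and -0.02 without them, and Enpp7 gave -1.06 ± 0.69 and -0.11. Fabp6 kept its difference, -1.10 ± 0.43 with and -1.30 without (adjusted p = 0.67 with them). For propionate LFD against control LFD, Enpp7 gave -0.78 ± 0.69 with the 4 arrays and -0.05 without them. Without them, control LFD is left with 2 arrays.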

How the data were processed

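Total RNA of 31 colon scrapings was hybridised to single-colour whole-transcript arrays, 1 array per sample. The deposited values are log2 intensities made with RMA, per the submitters' processing notes, a method of background correction, quantile normalization and probe summary. The sources used here give neither its version nor a genome build. Array medians lay between 5.14 and 5.19, and arrays of a group correlated with r from 0.981 to 0.994. The number of arrays limits the precision. The labels name 6 mice per group and not which ones the arrays hold, so p-values measure the spread between these samples.

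Of 35556 probe sets, 21218 have 1 gene symbol, 1881 several and 12457 are not listed in the annotation used. Genes with several probe sets took the one of highest mean, which gave 18820 genes. Genes below an intensity of 20 on all but 2 or fewer arrays were left out, and 12795 remained. Models were fitted with limma 3.58.1 in R 4.3.3, after a check on simulated data. Calls between the 4 arrays and the 8 rest on size and overlap, not on p. The members, lists and tests were chosen with earlier results of these data known. The genes named are the 16 highest and 8 lowest without overlap, up to 6 members per list, the 10 most alike, and in the 19 arrays the 10 positive and 5 negative slopes of smallest p. Other genes of the 32, the slopes of members and the rest of those named outside this rule were chosen after their values were seen. Gene models were counted only. Alternatives changed the filter, probe sets, normalization, replicate block, group term, threshold, moderation, array weights and arrays. The filter on the 27 other arrays and leaving out control HFD 1 and 2 together were added after seeing the data.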

Additional observations from a re-analysis of the deposited data

Results flagged for a closer look

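In groups of 4 arrays, 1 array was taken to stand apart when its gap to the nearest other made up a larger share of the group's range than the critical value of Dixon's test, which chance does in about 1 in 20 groups. Over 483 such groups of the named genes 51 (10.6%) held such an array, and in 31 of the 51 it was 1 of the 4 arrays, which the genes were chosen for. The share of the range is given below.

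On control HFD 2 it was 0.843 for Defa24, 0.984 for Enpp7, 0.843 for Anpep, 0.892 for Npc1l1, 0.937 for Slc6a19 and 0.914 for Apoc3. The same array had 0.898 for Plb1, 0.856 for Susd2, 0.874 for Sis, 0.866 for Lct, 0.838 for Abcc2, 0.945 for Fabp1 and 0.930 for Gata4. On propionate LFD 2 the share was 0.830 for Defa24, 0.877 for Defa39, 0.958 for Enpp7, 0.949 for Npc1l1, 0.875 for Slc6a19, 0.8292 for Apoc3, 0.845 for Plb1, 0.911 for Susd2 and 0.993 for Bst1. That array also had 0.944 for Lct, 0.858 for G6pc, 0.891 for Abcc2, 0.929 for Ada, 0.896 for Enpep, 0.949 for Mogat2, 0.938 for Slc7a15, 0.865 for Nos2 and 0.833 for Mgam. In control LFD, 2 of the 4 arrays are high, so neither can stand apart by this measure.

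Outside the 4 arrays, butyrate LFD 1, the array with the highest mean of Apoa1, Apoa4 and Mttp among the 19, stood apart for Defa24 (0.893), Defa39 (0.943) and Apoc3 (0.853), all towards higher levels. Butyrate HFD 2 stood apart for Defa24 (0.970), the level there being 5.25. Other arrays stood apart in single genes: butyrate LFD 3 for Slc6a19 (0.838), butyrate LFD 4 for Pla2g4c (0.915), butyrate LFD 2 for Vamp7 (0.851), butyrate HFD 3 for Fabp1 (0.866), and butyrate HFD 4 for Muc2 (0.933) and Cd7 (0.889). Propionate HFD 1 did so for Abcc2 (0.929) and Gata5 (0.844), propionate HFD 2 for Gata6 (0.902), propionate HFD 3 for Plb1 (0.848), and propionate HFD 4 for G6pc (0.835), Xpnpep2 (0.848) and Tlr9 (0.852). The last were acetate HFD 3 for Cyp3a25 (0.848), control LFD 1 for Gata6 (0.862) and control HFD 1 for Il21r (0.927).

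Among 203 groups of list means 13 (6.40%) held an array apart. Propionate LFD 2 stood apart in lipid absorption (0.922), peptide digestion (0.958), Paneth cells (0.858) and small-intestinal hormones (0.886), and propionate HFD 4 in carbohydrate digestion (0.927) and small-intestinal hormones (0.917). The other list means were those of xenobiotic enzymes on control LFD 4 (0.894), the Reg family on butyrate HFD 3 (0.874), colonic hormones on butyrate LFD 2 (0.913), goblet cells on butyrate HFD 1 (0.970), B cells on propionate HFD 1 (0.849) and control HFD 1 (0.964), and adipocytes on butyrate HFD 4 (0.902).

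Gata6 was lower on control HFD 2 than on all of its mates (by -0.11) and higher on both control LFD arrays than on theirs (by 0.31), and this difference between the groups was not tested. Among probe sets without a single gene symbol, which the gene comparisons do not use, 25 were at least 1 higher on the 4 arrays. These are the 14 alpha-defensin probe sets and 11 that the annotation does not list, the highest of the 11 by 4.56.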

How the results depend on the processing

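The main counts were 32 genes at least 1 higher, 0 at least 1 lower, 61 with all 4 arrays above the 8 and 41 below. The 32 genes stayed above 0 under each alternative in which they were measured. They were picked for their size on these same arrays, so this was close to fixed in advance and only describes them. Keeping only genes with a mean log2 level of 6 or more tests fewer genes and left 11 higher, 30 above and 27 below, and the filter on the 27 other arrays left 26 higher, all among the 32. A further quantile normalization gave 21 below, and a 1.5-fold threshold 11 lower. Within control LFD alone 2 genes were lower, 1359 above and 1858 below, within control HFD alone 20, 3256 and 4021, and within propionate LFD alone 14, 2821 and 4048, with 52 higher there. With 1 to 3 arrays on a side, these counts of overlap have little meaning. Without control HFD 1 and 2, 92 were below. Leaving out 1 array gave 25 to 36 higher, 0 to 3 lower, 64 to 125 above and 47 to 151 below. Of the 32 genes, 21 stayed at or above 1 without each array, and propionate LFD 2 took the most below it (Enpep, Enpp3, Lgals2, Nos2, Ocm, Pla2g4c, Slc26a6, Slc2a2 and Slc7a15).

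With the replicate number as a block, 62 genes were higher, 26 of the 32 among them, and 25 were lower. The labels do not say that a number marks a shared animal or day. Arrays of the same number correlated in their deviations from group means with r from -0.18 to 0.47 over 12 pairs (median 0.15, 9 of 12 over 0.1), and those of other numbers with a median of -0.03. Of the 4 arrays, 3 carry the number 2, so the block takes up part of the contrast.

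In the 19 arrays 0 genes passed, 1 passed after quantile normalization and without acetate HFD 2 (Enpp7 both times) and 1 without butyrate LFD 4 (Tnfrsf21), so leaving out 1 array gave 0 to 1 in all, each above 0, and 0 below. In the labelled comparisons no tested member of the small-intestinal lists passed under any alternative run. The cause of these changes was not tested, other than where fewer genes or arrays enter. Signal over background limits the dim genes.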
